A study of Mus musculus with 2 samples.

Results

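The expression of potassium, calcium and TRP channel genes was examined by RNA-Seq in mouse brown preadipocytes (D0) and in brown adipocytes (D7). The genes were taken by symbol and comprised all Kcn genes for potassium channel subunits, the Cacna, Cacnb and Cacng genes for voltage-gated calcium channel subunits, the Trpc, Trpm and Trpv genes, Orai1 to Orai3, and Stim1 and Stim2. The table held 147 such genes among 23361 genes with values, and all 147 had a value in both libraries. By their symbols they comprised 77 potassium channel alpha subunits, 16 auxiliary potassium channel subunits, 10 calcium channel pores, 16 auxiliary calcium channel subunits, 21 TRP channels and 5 genes of store-operated calcium entry. The remaining 2, Kcnq1ot1 and Trpc4ap, matched by name but are no channel subunits. Kcnq1ot1 is a noncoding RNA and Trpc4ap encodes an adaptor protein.

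The D0 library came from preadipocytes of the interscapular brown fat of newborn C57BL/6 mice (C57BL/6J in the methods of the study), and no genetic change of the animals is given in the labels. Both stages were kept, per the labels, in medium with 10% serum, insulin at 0.1 μM and T3 at 1 nM, before and during differentiation. Only the D7 cells had received, from day 0 and for 2 days, dexamethasone at 2 μg/ml, IBMX at 0.5 mM and indomethacin at 0.125 mM, so stage and exposure to these agents cannot be told apart. The labels call the cells primary cultures, whereas the methods of the study describe immortalization with the large T antigen and other doses. Each stage was represented by 1 library, so no difference below could be set against a spread between replicates and no p-value is given.

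Potassium channels carry potassium out of the cell and hold the membrane potential negative, and auxiliary subunits set how strongly and how fast they open. Voltage-gated calcium channels, TRP channels and Orai channels let calcium in. Orai channels open when STIM proteins sense that the calcium store of the endoplasmic reticulum has emptied. In brown adipocytes, where noradrenaline depolarizes the membrane and raises calcium, channels of these classes are studied as modulators of the thermogenic response, the leak channel KCNK3 among them.

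Levels are given as deposited in FPKM (fragments per kilobase of transcript, scaled to the size of the library), followed by the ratio of D7 to D0 with its 95% counting interval. A gene above 0 in both libraries was called higher at a ratio of at least 2 and lower at a ratio of at most 0.5. The intervals were computed from numbers of fragments that were worked back from the FPKM values, which are approximate for genes with several exons. They cover counting error only, not the variation between cultures. Where a gene was listed at 0, the other library was set against the limit of 3 fragments. RNA of mixed cells was measured, so fewer cells of a type and less RNA per cell cannot be told apart.

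The libraries carried the markers of their labelled stages. The summed FPKM of 8 adipocyte markers was 34.0 at D0 and 16129 at D7, where Ucp1 was at 4.57, Cidea at 24.4 and Lep at 8.74 after being listed at 0 at D0. The summed FPKM of 5 preadipocyte and fibroblast markers was 2614 at D0 and 1110 at D7, most of it from Col1a1, and 2 of them were lower, 1 (Cd34) was higher and Pdgfra was at 52.1 and 50.7 FPKM. Markers of other cells also differed between the stages. All 6 measured macrophage markers were higher at D7, with sums of 139 and 473. Of 6 smooth muscle and pericyte markers 3 were lower and 1 was higher at D7, with sums of 3997 and 678. All 4 Schwann cell markers were higher at D7 at low levels, with sums of 3.95 and 9.82. Neuronal markers summed to 101 and 18.1, nearly all from Tubb3, with Rbfox3 at 0 in both libraries. Skeletal muscle markers summed to 45.4 and 2.33, nearly all of the D0 sum being Acta1, with Ckm and Myod1 at 0 in both. Endothelial markers summed to 0.995 and 2.32, with Tie1 at 0 in both. The part of these other cells in the channel values was not tested.

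Most channel genes were low or absent at both stages. An FPKM of at least 1 in either library was reached by 30 of the 147 genes (20.4%), against 51.6% of all genes, and an FPKM of at least 10 by 11 genes. These 11 were Kcnk3, Stim1, Orai3, Cacng7, Cacnb3, Kcnab1, Kcne4, Trpm7, Trpv2, Kcnj15 and Trpc4ap. In both libraries 29 genes were listed at 0, a further 19 at D0 only and 17 at D7 only. Of these 36 genes above 0 in a single library, 19 rested on at most 3 fragments there. At least 10 fragments in a library stood behind 64 of the 147 genes. The values of 53 genes are given below, and the 91 genes outside the naming rule reached at most 0.966 FPKM, with 28 of them at 0 in both libraries.

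Among the 82 channel genes above 0 in both libraries, 26 were higher at D7 (31.7%), where the share of all genes was 18.5%. Lower at D7 were 16 (19.5%), against 13.2% of all genes. The same shares of all genes stand beside the counts by family below, which rest on few genes each. The counts of 26 and 16 leaned on rare transcripts. Of the 26 higher genes 13 had at most 3 fragments in a library, and for 11 the interval included a ratio of 1. With an FPKM of at least 1 in a library, 29 channel genes remained, of which 4 were higher (13.8%, against 15.6% of all genes) and 6 were lower (20.7%, against 11.9%). With at least 10 fragments and an interval that excluded 1, 15 of 61 channel genes were higher (24.6%, against 16.9%) and 11 were lower (18.0%, against 12.6%). The median log2 ratio of the 82 genes was 0.06, beside 0.02 for all genes, and that of the 29 genes with an FPKM of at least 1 was -0.30, beside -0.03 for all genes at that level. The higher genes at this level included Kcnk3 and Stim1, and the 6 lower genes were Kcnj15, Kcnh2, Kcnd1, Cacna1c, Cacnb1 and Cacnb3.

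**Figure D1:**
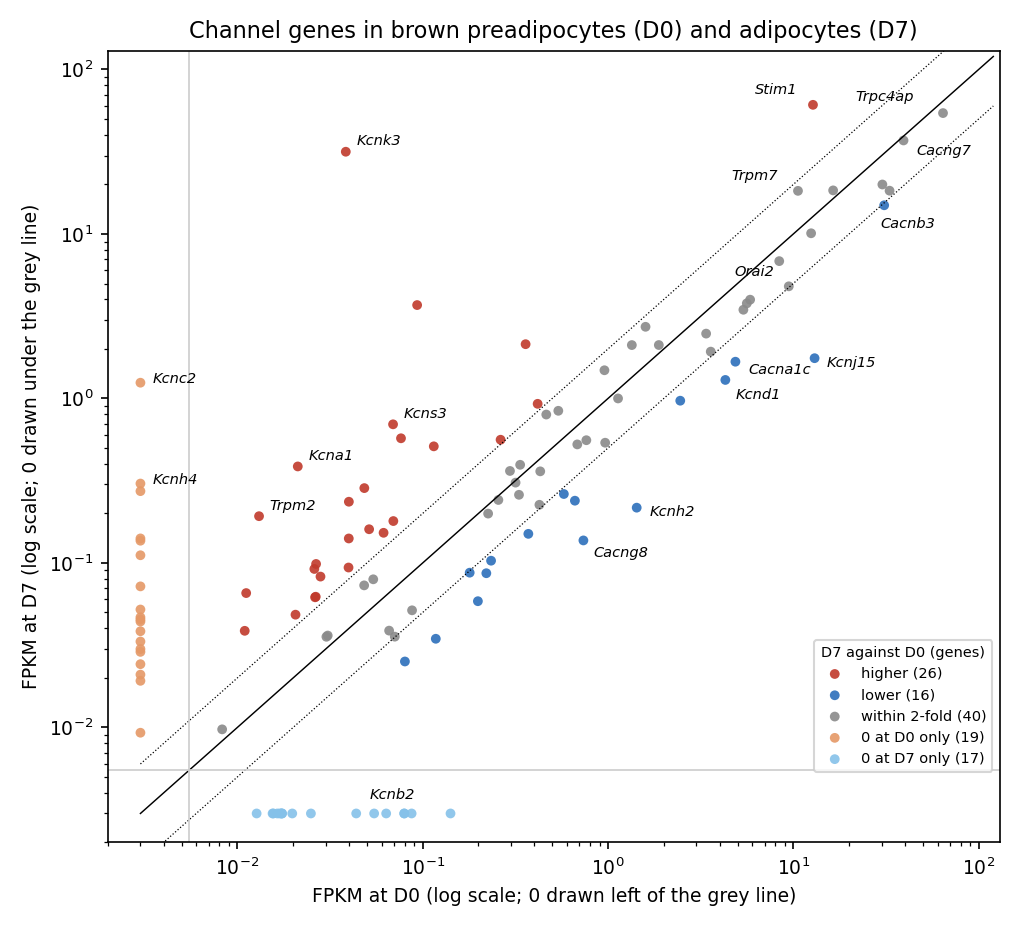
FPKM at D0 (horizontal, log scale) and at D7 (vertical, log scale) of the 118 channel genes above 0 in at least 1 library, each point a gene and each axis 1 library, with genes at 0 drawn beyond the grey lines. The solid line marks equal levels and the dotted lines a 2-fold difference; Kcnk3, at 0.0385 FPKM at D0 and 31.6 at D7, lies farthest above the line of equal levels among the genes above 0 in both libraries, and Kcnj15 lies lowest against the diagonal among the genes above an FPKM of 10 at D0.

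**Figure D2:**
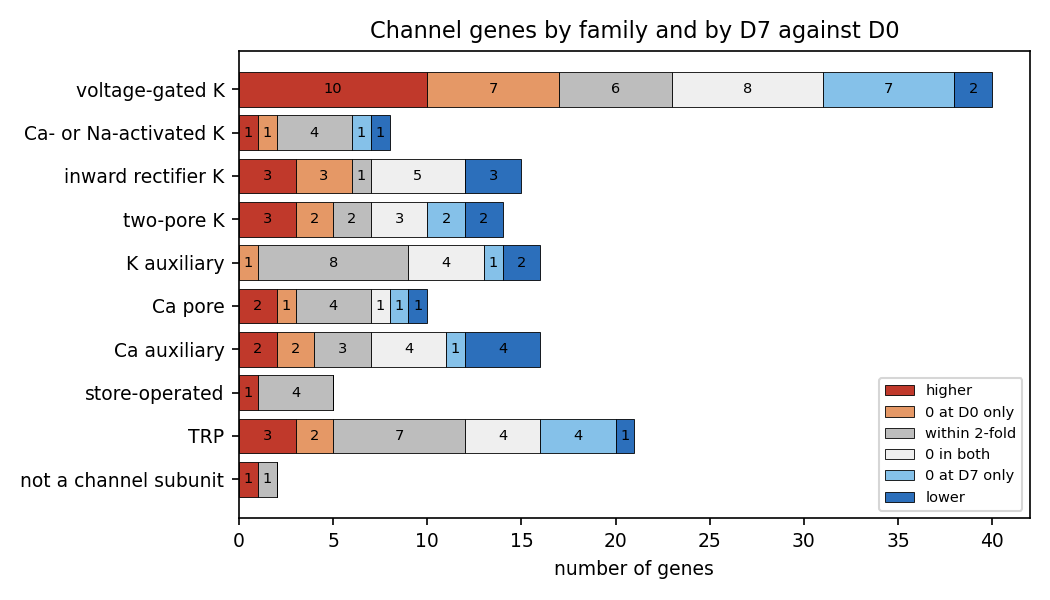
Number of channel genes (horizontal) in each family (rows), split by colour into those higher or lower at D7 by 2-fold, within 2-fold, and listed at 0 in one or both libraries. The 40 voltage-gated potassium genes held 10 higher and 2 lower genes, and the 16 auxiliary potassium subunits held none that was higher. Of all genes above 0 in both libraries 18.5% were higher and 13.2% were lower.

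Promoter sequence is shown for 3 genes on which the account turns. These are the paired calcium sensors Stim1 and Stim2, whose levels moved unequally, and Kcnj15, the main potassium channel alpha transcript at D0. Each window spans from 250 to 51 bases before the transcription start in RefSeq annotation on GRCm38, all on the plus strand, and contains no annotated exon. Stim1 is read from chr7:102267569-102267768, Stim2 from chr5:53998273-53998472 and Kcnj15 from chr16:95257308-95257507. Capitals mark matches on either strand to GGGCGG, the GC box, or to CACCC, the core letters bound by many KLF factors, the family the study was about.
Stim1: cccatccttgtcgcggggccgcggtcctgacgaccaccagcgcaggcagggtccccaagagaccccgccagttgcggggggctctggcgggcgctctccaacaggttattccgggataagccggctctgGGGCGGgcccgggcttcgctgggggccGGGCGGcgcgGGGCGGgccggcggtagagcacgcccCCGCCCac
Stim2: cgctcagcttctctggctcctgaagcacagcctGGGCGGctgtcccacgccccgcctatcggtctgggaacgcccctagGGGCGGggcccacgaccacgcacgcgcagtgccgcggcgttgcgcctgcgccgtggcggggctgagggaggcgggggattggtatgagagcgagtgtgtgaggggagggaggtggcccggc
Kcnj15: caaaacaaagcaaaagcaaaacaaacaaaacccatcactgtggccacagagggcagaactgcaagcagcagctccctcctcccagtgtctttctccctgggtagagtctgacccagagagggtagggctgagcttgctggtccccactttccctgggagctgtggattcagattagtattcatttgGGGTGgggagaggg
The Stim1 window held 4 GC boxes, the Stim2 window 2 and the Kcnj15 window 0. The CACCC letters, which can share bases with a GC box where they adjoin, were found 0 times in the Stim windows and 1 time, on the opposite strand, in that of Kcnj15. Of all 32851 promoter windows of this length 24.6% held a GC box and 44.4% held CACCC. Among the 152 windows of the 114 channel genes found in the promoter table these shares were 30.9% and 61.8%. A match in letters is a description of the sequence only.

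Among potassium channel alpha subunits the stages differed mainly in which gene supplied the transcripts. The FPKM values of the 77 alpha subunits summed to 29.2 at D0 and 54.9 at D7. At D0 Kcnj15 made up 44.7% of this sum and Kcnd1 14.7%, whereas Kcnk3 made up 0.132%. At D7 Kcnk3 made up 57.6% and Kcnj15 3.20%. Without Kcnk3 the sum was 29.1 at D0 and 23.3 at D7.

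**Figure D3:**
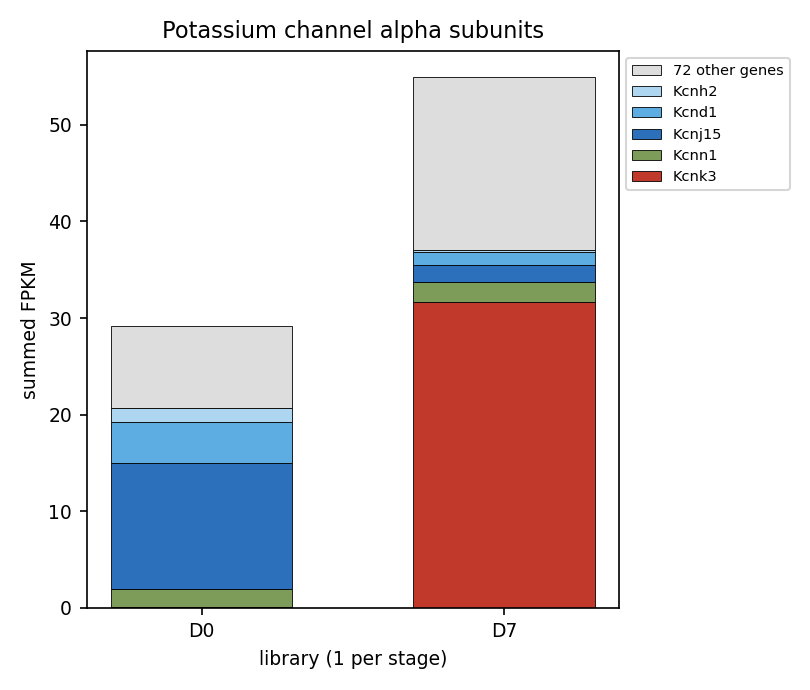
Summed FPKM (vertical) of the 77 potassium channel alpha subunits in the D0 and the D7 library, with 5 named genes as coloured parts of each bar and the other genes in grey. Kcnj15 is the largest part at D0 (13.0 FPKM) and Kcnk3 at D7 (31.6 FPKM).

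Kcnk3 encodes TASK-1, a two-pore leak channel that closes on acidification. It lies at chr5:30588170-30625271 on the plus strand of mm10, with 2 exons in the named transcript. Its FPKM was 0.0385 at D0, which is about 3 fragments, and 31.6 at D7, which is about 2097 fragments, for a ratio of 822 (281 to 3990). Of the 12771 genes above 0 in both libraries and with at least 10 fragments in a library, 21 had a higher ratio. The ratio depends on the very low D0 level and was 229 with 0.1 and 31.4 with 1 added to each FPKM. An antisense transcript, Gm9899, shares 229 exonic bases with Kcnk3 and was at 0.802 FPKM at D7. Strand use in counting is not stated, so reads in the shared bases could belong to either gene.

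The other two-pore channels were low. Kcnk13, a channel known from microglia, was at 0.0484 FPKM at D0 and 0.285 at D7, about 3 and 15 fragments, for a ratio of 5.89 (1.66 to 31.7). The macrophage markers given above were also higher at D7, and their part in this value was not tested. Kcnk2, the mechanosensitive channel TREK-1, was at 0.957 and 1.48 FPKM, a ratio of 1.55 (0.954 to 2.61) that was not distinguishable from 1 at this depth. An antisense transcript shares 604 exonic bases with Kcnk2. In all, 3 of the 14 two-pore genes were higher, 2 lower and 2 within 2-fold, and 7 were at 0 in at least 1 library.

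Of the 40 voltage-gated potassium channel alpha subunits, 10 were higher at D7, 2 were lower, 6 were within 2-fold and 22 were at 0 in at least 1 library. Of all genes above 0 in both libraries 18.5% were higher and 13.2% were lower. Some of the higher genes rested on very few fragments at D0, such as Kcna1 with about 2 and Kcna3 with about 1. The median log2 ratio of the 18 genes above 0 in both was 1.32, and their median level was 0.0700 FPKM in the D0 and 0.231 FPKM in the D7 library. Kcns3 encodes a silent subunit that forms no channel of its own and modifies other voltage-gated subunits. It was at 0.0692 FPKM at D0 and 0.697 at D7, for a ratio of 10.1 (3.68 to 39.9) from about 4 and 35 fragments. Kcnb2, which encodes a delayed rectifier, went the other way at a low level. It was at an FPKM of 0.0635 at D0, about 20 fragments, and at 0 at D7. The D0 level was 5.67 times the limit of 3 fragments at D7, and the counting interval of the ratio ended at 0.238.

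Kcnc2 encodes a channel known for fast repolarization of neurons. It was at 0 at D0 and at an FPKM of 1.25 at D7, about 63 fragments. This level was 24.7 times the limit of 3 fragments at D0, and the counting interval of the ratio began at 19.5. Of the neuronal markers Tubb3 was at 101 FPKM at D0 and 18.0 at D7, and the others were at or near 0 in both libraries. The part of neuronal cells in the Kcnc2 value was not tested.

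The Kv1 genes encode low-threshold delayed rectifiers and A-type channels and stayed under an FPKM of 1, and Kcna1, Kcna4 and Kcna6 were higher at D7 with an interval above 1. Kcna5, named here after its values were seen, was at 0.0659 and 0.0388 FPKM, about 4 and 2 fragments. Kcna1 was at 0.0212 FPKM at D0 and 0.386 at D7, for a ratio of 18.2 (3.99 to 138) from about 2 and 27 fragments. Kcna4 was at 0.0399 and 0.141 FPKM, a ratio of 3.53 (1.07 to 15.0). Kcna6 was at 0.263 and 0.561 FPKM, a ratio of 2.13 (1.36 to 3.39), and 2355 of its exonic bases are shared with an antisense transcript. Under median centring Kcna6 was no longer past 2-fold. Kcna3, a channel of lymphocytes and macrophages, was at 0.0260 and 0.0920 FPKM, about 1 and 3 fragments, and its ratio of 3.53 (0.284 to 185) was not distinguishable from 1. The Schwann cell markers given above were also higher at D7, and their part in the Kv1 values was not tested. Kcnh4, of the ether-a-go-go family, was at 0 at D0 and at 0.304 FPKM at D7, about 20 fragments. This level was 7.76 times the limit of 3 fragments at D0, and the counting interval of the ratio began at 5.81.

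The voltage-gated genes that were lower at D7 were better measured. Kcnd1 encodes Kv4.1, an A-type channel that inactivates fast, and lies at chrX:7822289-7838280 on the plus strand. It was at 4.30 FPKM at D0 and 1.30 at D7, for a ratio of 0.302 (0.245 to 0.370). Kcnh2 encodes the hERG-type channel that repolarizes cardiac muscle, and lies at chr5:24319589-24351604 on the minus strand. It was at 1.43 FPKM at D0 and 0.217 at D7, for a ratio of 0.152 (0.0841 to 0.256) from about 124 and 16 fragments. Neither gene shares exonic bases with another annotated gene.

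Inward rectifiers pass potassium more readily into the cell than out of it and help to hold the resting potential. Kcnj15, which encodes Kir4.2, lies at chr16:95257558-95300260 on the plus strand, downstream of the promoter window printed above. It was the most abundant potassium channel alpha transcript at D0, at 13.0 FPKM, and stood at 1.76 FPKM at D7, for a ratio of 0.135 (0.114 to 0.159). Of the 12771 genes above 0 in both libraries and with at least 10 fragments in a library, 159 had a lower ratio. It shares 333 exonic bases with the antisense transcript Gm49643. Kcnj2, which encodes the strong rectifier Kir2.1, was at 0.663 FPKM at D0 and 0.239 at D7, for a ratio of 0.361 (0.216 to 0.582). Kcnj4, which encodes the related Kir2.3, was at 1.13 and 1.00 FPKM, a ratio of 0.883 (0.557 to 1.39) within its counting error. Of the 15 inward rectifiers, 3 were higher, 3 were lower and 1 was within 2-fold, and 8 were at 0 in at least 1 library.

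The ATP-sensitive channels pair a Kcnj8 or Kcnj11 pore with a sulfonylurea receptor encoded by Abcc8 or Abcc9, and close when ATP is high. Kcnj8 was at 0.417 FPKM at D0 and 0.928 at D7, for a ratio of 2.22 (1.29 to 4.00) that fell inside 2-fold with 0.1 added to each FPKM (1.99) and when FPKM values with a floor of 0.01 were divided by the median of each library (1.74), an alternative chosen after the data were seen. Abcc9 was at 0.331 and 0.633 FPKM, a ratio of 1.91 (1.29 to 2.87). The pancreatic-type partners were next to absent, with Kcnj11 at 0 at D0 and about 2 fragments at D7 and Abcc8 at 0 in both libraries.

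Of the potassium channels opened by calcium, the small-conductance gene Kcnn1 had the highest level, at 1.88 FPKM at D0 and 2.11 at D7, for a ratio of 1.12 (0.891 to 1.42). Its direction turned, to 0.880, under the same floor and division by the library medians. Kcnn4, the intermediate-conductance channel of blood cells and fibroblasts, was at 0.683 and 0.526 FPKM, a ratio of 0.770 (0.392 to 1.47). Kcnma1 encodes the large-conductance pore and Kcnmb1 its smooth muscle subunit, and both were lower at D7. Kcnma1 was at 0.578 FPKM at D0 and 0.263 at D7, for a ratio of 0.454 (0.243 to 0.812), and 1016 of its exonic bases are shared with a transcript on the opposite strand. Kcnmb1 was at 0.372 and 0.150 FPKM, a ratio of 0.404 (0.184 to 0.823) from about 32 and 11 fragments. Of the 8 channels opened by calcium or sodium 1 was higher, 1 was lower and 4 were within 2-fold. The summed smooth muscle markers given above were also lower at D7, and their part in these values was not tested.

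Among the auxiliary subunits, Kcnab1 and Kcne4 stood at higher FPKM levels than any voltage-gated potassium channel pore. Kcnab1, a cytosolic beta subunit that speeds inactivation of Kv1 channels, was at 33.1 FPKM at D0 and 18.3 at D7, for a ratio of 0.554 (0.515 to 0.598). It stayed within 2-fold here but passed it, at 0.434, under division by the library medians. Kcne4, a membrane subunit that inhibits several voltage-gated channels, was at 30.2 and 20.0 FPKM, a ratio of 0.661 (0.609 to 0.718). Kcnab2, a second beta subunit, was at 1.34 and 2.11 FPKM, a ratio of 1.57 (1.21 to 2.03). Of the 16 auxiliary genes 0 were higher, 2 were lower and 8 were within 2-fold, and 6 were at 0 in at least 1 library.

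**Figure D4:**
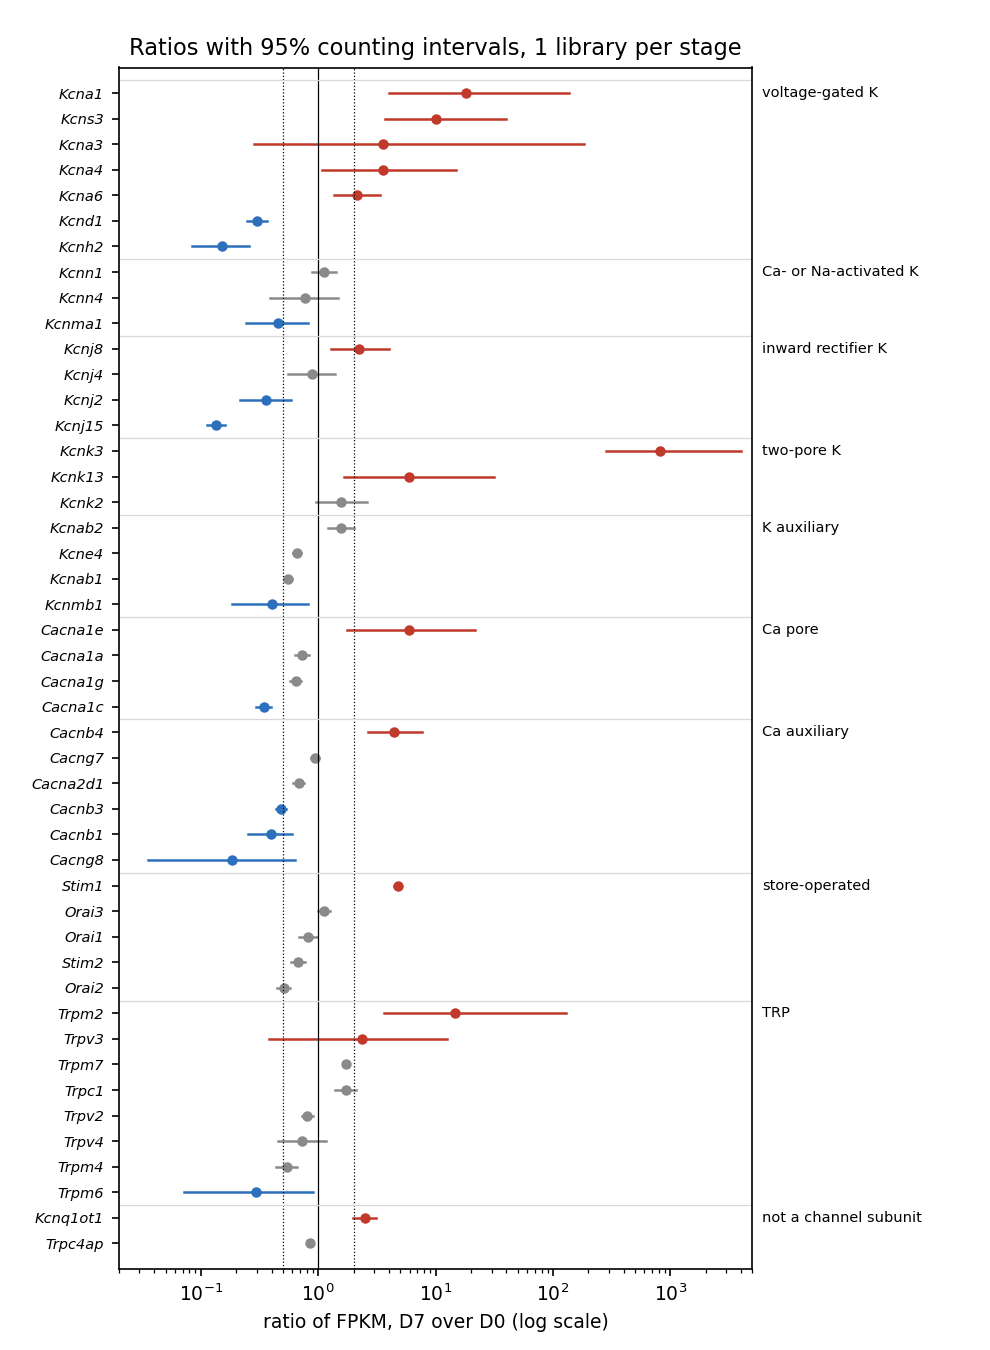
Ratio of FPKM at D7 over D0 (horizontal, log scale) for 46 named genes above 0 in both libraries, in rows by family, with points as ratios and lines as 95% counting intervals from 1 library per stage. Red marks ratios of at least 2, blue ratios of at most 0.5 and grey the others; Kcnk3 stands at 822 and Kcnj15 at 0.135, and wide lines belong to genes with few fragments.

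The 3 abundant voltage-gated calcium channel pores, Cacna1g, Cacna1c and Cacna1a, had lower levels at D7, and Cacna1c was past 2-fold. The FPKM values of the 10 pores summed to 14.4 at D0 and 8.46 at D7. Cacna1c encodes the L-type pore Cav1.2 of muscle and lies at chr6:118587240-119196418 on the minus strand. It was at 4.87 FPKM at D0 and 1.67 at D7, for a ratio of 0.344 (0.297 to 0.397), and 2 other genes were listed under the same locus in the table. The summed smooth muscle and pericyte markers were lower at D7 as well, with 3 of the 6 lower and 1 higher. Their part in this value was not tested. Cacna1g, the low-threshold T-type pore, was at 5.38 and 3.46 FPKM, a ratio of 0.644 (0.576 to 0.718). Cacna1a, the P/Q-type pore of nerve endings, was at 3.38 and 2.48 FPKM, a ratio of 0.732 (0.640 to 0.839). Cacna1e, the R-type pore, was rare at 0.0112 and 0.0656 FPKM, a ratio of 5.88 (1.74 to 21.5) from about 4 and 18 fragments. Of the 10 pores 2 were higher, 1 was lower and 4 were within 2-fold, and 3 were at 0 in at least 1 library.

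The beta subunits bring calcium channel pores to the membrane. Cacnb3, the most abundant, lies at chr15:98630840-98644529 on the plus strand and was at 30.9 FPKM at D0 and 14.9 at D7, for a ratio of 0.483 (0.440 to 0.531). Cacnb1 was at 2.45 and 0.969 FPKM, a ratio of 0.395 (0.251 to 0.599). Cacnb4 differed from these in direction, at 0.115 FPKM at D0 and 0.512 at D7, for a ratio of 4.46 (2.66 to 7.62), and 1433 of its exonic bases are shared with a transcript on the opposite strand. Cacna2d1, an extracellular subunit that promotes surface delivery, was at 5.85 and 3.99 FPKM, a ratio of 0.682 (0.611 to 0.761). Cacng7 and Cacng8 belong to a subgroup known mainly as partners of AMPA glutamate receptors. Cacng7 was the most abundant calcium channel gene in both libraries, at 39.3 and 37.0 FPKM, a ratio of 0.942 (0.876 to 1.01). Cacng8 was at 0.737 and 0.137 FPKM, a ratio of 0.186 (0.0353 to 0.632) from about 19 and 3 fragments. Of the 16 auxiliary calcium genes, 2 were higher, 4 were lower and 3 were within 2-fold, and 7 were at 0 in at least 1 library.

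The calcium sensors of store-operated entry parted between D0 and D7. Stim1 encodes the main sensor in the endoplasmic reticulum and lies at chr7:102267806-102437319 on the plus strand, with 12 exons in the named transcript. It was at 12.8 FPKM at D0 and 61.0 at D7, about 1071 and 4348 fragments, for a ratio of 4.78 (4.47 to 5.11). It kept a ratio of at least 3.74 under every other scaling, floor and pseudocount tried. Stim2, the sensor that responds to smaller losses of stored calcium, was at 5.61 and 3.79 FPKM, a ratio of 0.675 (0.588 to 0.775). The level of Stim1 was thus 2.28 times that of Stim2 at D0 and 16.1 times at D7. Neither Stim gene shares exonic bases with another annotated gene.

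The Orai genes encode the pores that STIM proteins open, and their summed level was similar, at 34.3 FPKM at D0 and 30.1 at D7. Orai3 had the highest level of these pores in both libraries, at 16.4 and 18.4 FPKM, a ratio of 1.12 (1.00 to 1.26) whose direction turned, to 0.879, under division by the library medians. Orai1, the founding member, was at 8.40 and 6.84 FPKM, a ratio of 0.815 (0.681 to 0.975). Orai2 was at 9.45 and 4.81 FPKM, a ratio of 0.508 (0.445 to 0.579) that lay just inside the 2-fold limit and passed it under TPM (0.499), upper quartile (0.492) and median (0.475) scaling. The summed Orai level was 1.86 times the summed Stim level at D0 and 0.464 times at D7.

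**Figure D5:**
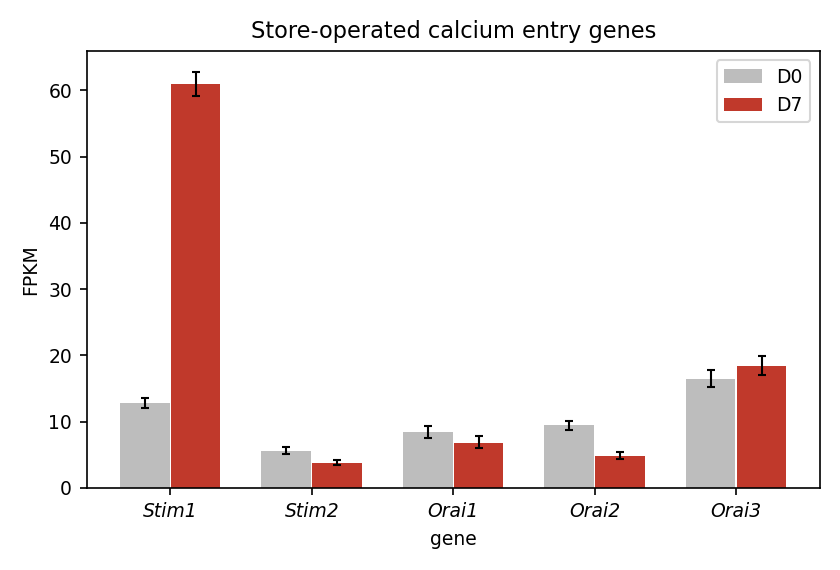
FPKM (vertical) of the Stim and Orai genes (horizontal) at D0 (grey) and D7 (red), with bars as the value of 1 library each and error bars as exact 95% Poisson counting intervals. Stim1 stands at 12.8 and 61.0, while each of the other bars lies under 20.

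TRP channels are cation channels gated by temperature, lipids or chemical ligands, and their abundant members moved little. Trpm7, which joins a magnesium-permeable pore to a kinase, was at 10.6 FPKM at D0 and 18.3 at D7, for a ratio of 1.73 (1.62 to 1.84). Trpv2, a calcium-permeable channel described in brown adipocytes, was at 12.5 and 10.1 FPKM, a ratio of 0.810 (0.721 to 0.908). Between them Trpv2 had the higher level at D0 and Trpm7 at D7. Trpm4, a calcium-activated channel for monovalent ions, was at 3.58 and 1.93 FPKM, a ratio of 0.537 (0.439 to 0.659) that passed 2-fold, at 0.421, only under division by the library medians. Trpc1, a subunit of receptor-operated channels, was at 1.59 and 2.73 FPKM, a ratio of 1.71 (1.38 to 2.12).

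The TRP channels past 2-fold were all rare. Trpm2, opened by ADP-ribose and known from phagocytes, was at 0.0131 FPKM at D0 and 0.192 at D7, for a ratio of 14.7 (3.66 to 128) from about 2 and 25 fragments. The macrophage markers were also higher at D7, and their part in this value was not tested. Trpm6, a magnesium channel of kidney and gut, was at 0.118 and 0.0346 FPKM, a ratio of 0.294 (0.0715 to 0.911). Trpv4, a sensor of osmotic and mechanical stress, was at 0.764 and 0.558 FPKM, a ratio of 0.730 (0.450 to 1.16). The classical temperature sensors were at the limit of detection. Trpv1 was at 0.0796 FPKM at D0, about 5 fragments, and at 0 at D7. Trpv3 was at 0.0206 and 0.0485 FPKM, about 3 and 5 fragments. The cold receptor Trpm8 was at 0.0127 FPKM at D0, about 1 fragment, and at 0 at D7, and Trpc5 was at 0 in both libraries, where 3 fragments would be 0.0351 FPKM at D0 and 0.0413 at D7. Of the 21 TRP channels 3 were higher, 1 was lower and 7 were within 2-fold, and 10 were at 0 in at least 1 library.

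The genes that matched by name only were measured as well. Trpc4ap was at 64.2 and 54.3 FPKM, the highest level of the set in the D0 library, with a ratio of 0.846 (0.807 to 0.887). Kcnq1ot1, which lies antisense in the Kcnq1 gene, was at 0.0615 and 0.153 FPKM, a ratio of 2.48 (1.99 to 3.09) that fell inside 2-fold with 0.1 added (1.56) and with the floor and library medians (1.94).

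Genes that work with these channels were listed by role, and 50 of 54 listed symbols had values. Above 0 in both libraries were 42, of which 3 were higher and 7 were lower at D7. Of all genes above 0 in both libraries 18.5% were higher and 13.2% were lower. The 3 higher genes were Nfatc2, Hcn2 and Tmem38b. Nfatc2, a transcription factor activated by calcineurin, was at 0.0504 and 0.423 FPKM, a ratio of 8.40 (3.87 to 22.4) from about 7 and 51 fragments. Hcn2, a cation channel opened by hyperpolarization, was at 0.772 and 4.34 FPKM, a ratio of 5.62 (4.13 to 7.79). Tmem38b, a potassium channel of the endoplasmic reticulum that balances calcium release, was at 8.73 and 23.8 FPKM, a ratio of 2.73 (2.45 to 3.03).

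The 7 lower genes were Nfatc4, Calm2, Itpr3, Piezo1, Efcab4b, Hcn3 and Mcoln3, of which Hcn3 and Mcoln3 rested on at most 11 fragments in a library. Itpr3, a calcium release channel, was at 8.23 and 2.06 FPKM, a ratio of 0.250 (0.221 to 0.281). Piezo1, a mechanically gated cation channel, was at 57.9 and 26.4 FPKM, a ratio of 0.456 (0.440 to 0.474). Nfatc4 was at 29.8 and 11.4 FPKM, a ratio of 0.383 (0.350 to 0.419), opposite in direction to Nfatc2. Among the partners of STIM and Orai, Asph stayed at 27.6 and 31.9 FPKM, a ratio of 1.16 (1.03 to 1.30). Tmem110, an activator of STIM1, stayed at 8.54 and 9.75 FPKM, a ratio of 1.14 (1.02 to 1.27). Efcab4a, listed with these partners, was at 1.64 and 1.82 FPKM, a ratio of 1.11. Efcab4b, also listed with them, was lower, at 1.07 and 0.360 FPKM, a ratio of 0.337. No counting interval was available for Efcab4a and Efcab4b. The irritant receptor Trpa1 was at 0 in both libraries.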

How the data were processed

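The authors made RNA-Seq libraries of D0 and D7 cells, 1 per stage, removed duplicate and rRNA reads and deposited FPKM values, 1 for each gene in a library, on mm10. The methods of the study name SOAP2 as aligner, the submitters' processing notes name Bowtie2, and the strand setting of counting is not given in the sources used here. Of 27324 rows, 3963 held no value and were not used. No column of values was unmatched.

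FPKM values were used without rescaling. Numbers of fragments were worked back from 600 single-exon genes, by choosing the length correction and scaling total that made most low values whole. With this choice all 79 values at D0 and all 90 at D7 that stood for 20 fragments or fewer were whole within 0.1. The scaling totals of 21468465 at D0 and 18266798 at D7 are thus fitted and are not counted reads. For the channel genes the length of the named transcript was used, and of 56 and 57 values of up to 20 fragments 57.1% and 52.6% were whole, so these numbers are approximate. Ratio intervals are exact Clopper-Pearson intervals at 95%. Genes were named with an FPKM of at least 1 in a library, with a 2-fold difference, an interval excluding 1 and at least 10 fragments in a library, or from a list of channels known in fat or in calcium entry. Members, families and lists were chosen with earlier results of these data known. Positions come from GENCODE M21 and promoters from RefSeq on GRCm38. Partner and marker symbols were matched as listed. Scripts in Python 3.11.15 with scipy 1.17.1 were tested on simulated data. Other scalings, pseudocounts, filters and thresholds were tried. The values of some channel genes are not reported here.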

Additional observations from a re-analysis of the deposited data

How the results depend on the processing

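The counts of 26 higher and 16 lower channel genes stayed within 1.5 times under median, upper quartile, trimmed mean and TPM scaling, and without Kcnq1ot1 and Trpc4ap. With 0.1 added to each FPKM they were 17 and 9, and with 1 added 5 and 4. An FPKM of at least 0.1 in a library left 17 higher and 15 lower genes, an FPKM of at least 1 left 4 and 6, and at least 10 fragments left 17 and 12. A 4-fold threshold left 12 and 3, and an interval excluding 1 left 15 and 11. A floor of 0.01 with division by the median of all values of each library, chosen after seeing the data, moved the log2 ratios of genes above 0 in both libraries by -0.35, which left 19 higher and 24 lower of these, and let in genes at 0 in one library, for 34 higher and 38 lower genes. The median log2 ratio of 0.06 turned negative with an FPKM of at least 0.1 (-0.21) or 1 (-0.30), with at least 10 fragments (-0.087), with that floor (-0.29) and, by less than 0.1, under median centring (-0.04). Of 28 named genes past 2-fold and above 0 in both libraries, 20 fell inside 2-fold with 1 added and 10 with 0.1 added (Cacna1e, Kcna3, Kcna4, Kcna6, Kcnj8, Kcnma1, Kcnmb1, Kcnq1ot1, Trpm6 and Trpv3); none changed direction under the alternatives run. Among those that kept a 2-fold difference with 1 added were Kcnk3, Stim1, Kcnj15, Kcnd1, Cacna1c and Cacnb3. With few fragments in a library, as for Kcna3 or Trpv3, a 2-fold difference was not detectable at this depth. No paired analysis was possible because each stage had 1 library.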

Other observations

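Some pairs of related genes, chosen after their values were seen, stood on opposite sides of 2-fold, namely Cacnb4 and Cacnb3, Kcnj8 and Kcnj15, and Nfatc2 and Nfatc4. In each pair the member that was higher at D7 had started under an FPKM of 1. At D7, 2598 genes had a higher FPKM than Kcnk3.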
